A study of Mus musculus with 20 samples.

Results

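Female and male whole adrenal glands were compared within mice labelled as lacking Bmal1 in the adrenal cortex, gene by gene over the autosomes. The groups were 5 libraries from females and 4 from males of the genotype SCC::Cre_BMAL1 KO, and the comparison was female minus male across chromosomes 1 to 19. Of 47729 genes in the deposited table, 43008 were autosomal, and 25337 of these reached a normalised read count of at least 1 in at least 4 libraries and were tested. The females were 2.4 to 3.4 months old and the males 2.9 to 3.7 months. The same contrast in 5 females (1.5 to 3.4 months) and 6 males (2.9 to 4.7 months) of the genotype SCC::Cre_CTRL was set beside it. All 4 groups carry the SCC::Cre label. SCC stands for the side-chain cleavage enzyme P450scc, the product of Cyp11a1. Within the adrenal the driver therefore acts in cortical cells that make steroids. The whole gland also holds medulla, vessels, nerve, capsule and immune cells. Whether the driver acts outside the adrenal was not tested. The hour of collection, the strain background, the exons removed, the oestrous stage and shared litters are not stated in any source used here. No label says that libraries of a group came from separate animals, so p-values measure the spread among these libraries and no more, and part of it may be technical.

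The adrenal cortex makes steroid hormones from cholesterol, and its cells take cholesterol from lipoproteins or make it through the mevalonate pathway under the transcription factor SREBP2. In mice the gland differs between the sexes. Females keep an inner ring of cortical cells, the X-zone, past puberty and lose it by the first pregnancy, whereas in males it regresses at puberty under androgens. BMAL1, encoded by Arntl, pairs with CLOCK or NPAS2 to drive the circadian clock, and the adrenal clock is known for gating the daily rise of glucocorticoids.

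Total reads recovered from the 9 Bmal1 KO libraries ranged from 18148102 to 26742820, and mitochondrially encoded genes took 7.94% to 11.5% of them. In a principal component analysis of autosomal genes in the Bmal1 KO libraries, the leading component held 34.2% of the variance and placed all females (-73.9 to -44) apart from all males (60.4 to 72.2). Xist, the transcript of the inactive X chromosome, and the Y-linked Ddx3y matched the sex label in all 20 libraries. Arntl itself (chr7:113207465-113314126, plus strand, GRCm38) did not fall below the controls in libraries carrying the Bmal1 KO label. It read 1010, 885, 854, 833 and 942 normalised reads in the 5 females and 995, 965, 841 and 893 in the 4 males, against means of 618 ± 147 in control females (SD, n = 5) and 663 ± 238 in control males (n = 6). A count over the whole gene does not show whether part of it was removed, so Arntl gives no check of the genotype label, and the genotype is named here as labelled. Between the sexes Arntl differed by -0.03 ± 0.20 on the log2 scale (SE, adjusted p = 0.938, 95% interval -0.45 to 0.39). The clock-controlled genes Nr1d1 and Dbp lay far below the controls in both sexes labelled Bmal1 KO: Nr1d1, a repressor of Bmal1 transcription, read 160 to 450 normalised reads in the 9 Bmal1 KO libraries and 1091 to 3410 in the 11 controls.

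Sex differences were widespread in the Bmal1 KO adrenals. At an adjusted p under 0.05, 5789 of the 25337 autosomal genes were called (22.8%), 3098 higher in females (12.2%) and 2691 higher in males (10.6%). These shares are the background for the counts of every gene list below. Among these, 1872 differed at least 2-fold (7.39%), with 779 higher in females (3.07%) and 1093 in males (4.31%). At 8-fold or more the balance was the other way, with 140 genes higher in females (0.553%) and 39 in males (0.154%). At an unadjusted p under 0.05 there were 8744 genes (34.5%). The 5 female and 4 male values did not overlap for 5274 genes (20.8%), of which 4480 were also called (17.7% of genes tested). Each chromosome contributed, with between 19.1% (chromosome 1) and 28.8% (chromosome 15) of its tested genes called. When only the libraries between 2.6 and 3.4 months of age were used (3 females and 3 males), 3844 genes were called, 2248 higher in females and 1596 in males.

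Most of the dimorphism seen in controls was also seen in the Bmal1 KO libraries. In controls 6708 autosomal genes were called (26.5%; 36.6% had an unadjusted p under 0.05). With age as a covariate 3570 were called, and the shares below are from the fit without it. At least 2-fold differences were called for 2136 of them (8.43% of genes tested), 3.33% higher in females and 5.1% higher in males. Altogether 4124 genes were called in the same direction in both genotypes. That is 71.2% of the Bmal1 KO calls and 61.5% of the control calls. The 2 contrasts share no library but share the estimate of spread; with each genotype fitted alone, 3595 genes were shared, 67.4% and 60.1% of the calls. Of the 5789 genes called in Bmal1 KO, 5615 (97%) had the same sign in controls. The 2136 genes called in controls with at least a 2-fold difference had a median size of 1.44 on the log2 scale there and 1.13, in the same direction, in Bmal1 KO. The 1872 genes chosen in the same way in Bmal1 KO had a median of 1.50 there and 1.16 in controls, so each selection gave a smaller median in the genotype it did not use. Across the 8370 genes called in either genotype the log2 differences had a Pearson correlation of 0.838 and a Spearman correlation of 0.858, given as a description over genes, which are not replicates. Calls in opposite directions were made for 3 genes, Sftpc, Rgcc and Gm15701, and these were picked out after their values were seen.

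**Figure D1:**
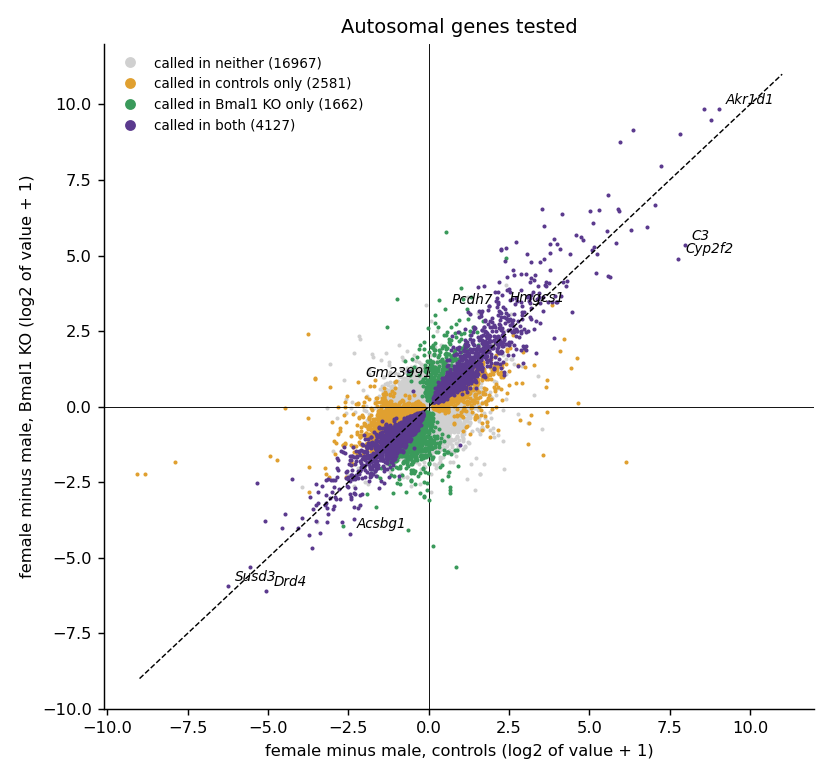
Each point is 1 of 25337 autosomal genes, with the female minus male difference in controls on the x axis and in Bmal1 KO on the y axis, both as log2 of the normalised read count plus 1; colours show in which genotype a gene was called and the dashed line marks equal differences. Genes called in both genotypes lie along the dashed line, among them Akr1d1 (9.03 in controls, 9.84 in Bmal1 KO) at the female end and Susd3 (-6.26 and -5.94) at the male end.

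The difference between the 2 sex differences (female minus male in Bmal1 KO, less the same in controls) was called for 8 autosomal genes (0.0316%), and 1622 had an unadjusted p under 0.05 (6.4%). This test was less precise than either contrast. Its 95% interval lay within 2-fold in both directions for 4657 of the 6708 genes called in controls (69.4%), but for only 448 of the 2136 genes with at least a 2-fold difference there (21%). A missing call in that test therefore does not show that a difference was equal in both genotypes.

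The X-zone genes marked females in the Bmal1 KO adrenals as they did in controls. All 4 list members were called higher in females (median log2 difference 7.19, against 8.16 in controls, where all 4 were also called). The estimated difference was greater in Bmal1 KO for 3 of the 4, with 0 called for it by limma. In controls it was 8.56 for Akr1c18 and 8.79 for Pik3c2g. Akr1c18 (chr13:4132615-4150654, minus strand), a hydroxysteroid dehydrogenase that inactivates progesterone, read 82097, 23259, 26382, 63729 and 62271 normalised reads in the 5 Bmal1 KO females. In the 4 males it read 7.17, 38.9, 101 and 188. The lowest female thus stood far above the highest male, and the log2 difference was 9.83 ± 0.81 (SE, adjusted p = 1.67e-08). Pik3c2g (chr6:139587221-139969284, plus strand), a class II phosphoinositide kinase subunit, read 16260, 8066, 2644, 2256 and 3519 in females. Its male values were 0.797, 2.78, 2.17 and 97.1, so male 4 stood apart from the other males while remaining below every female (log2 difference 9.49 ± 1.03, adjusted p = 8.19e-07).

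For the 2 remaining X-zone genes the estimated gap was narrower than in controls in one case and wider in the other. Cyp2f2 (chr7:27119909-27133660, plus strand), a cytochrome P450, read 590, 990, 742, 2451 and 845 in Bmal1 KO females and 27.8 to 36.7 in males. Control females read 3646 to 12674, all above every Bmal1 KO female. Its sex difference was 4.89 ± 0.39 in Bmal1 KO and 7.76 ± 0.36 in controls; the difference of the 2 was -2.87 ± 0.53 and missed the threshold (adjusted p = 0.0602). Thrb (chr14:17660261-18038090, plus strand), the thyroid hormone receptor beta, read 2414 to 3122 in Bmal1 KO females and 407 to 550 in males, a log2 difference of 2.55 ± 0.12 (adjusted p = 8.23e-12). In controls it was 1.67 ± 0.11, and the difference of 0.88 ± 0.16 also missed the threshold (adjusted p = 0.0602). In whole glands, fewer cells of a type and less RNA per cell cannot be told apart, which holds for every gene group in this report.

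**Figure D2:**
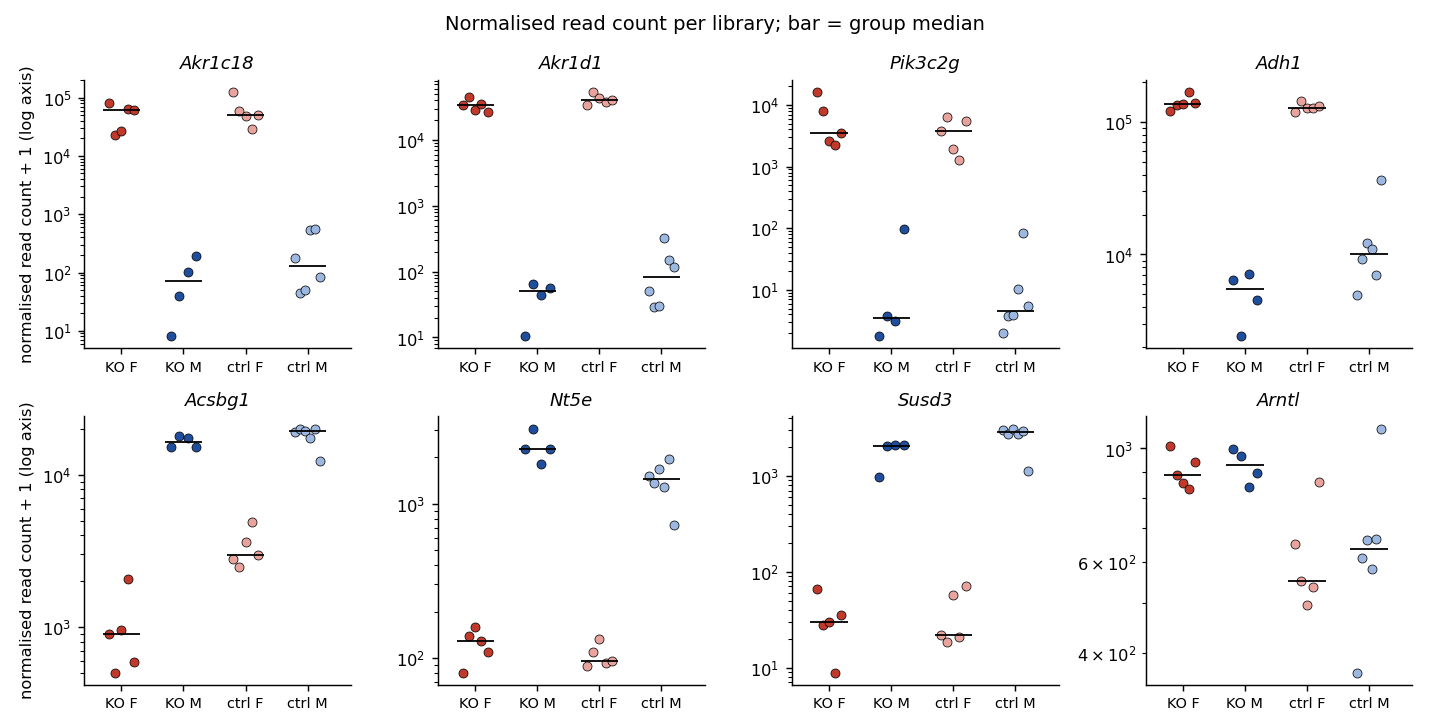
Normalised read count plus 1 on a log axis for 8 genes in every library, as points by group (KO F, Bmal1 KO females; KO M, Bmal1 KO males; ctrl F and ctrl M, controls), with a line at the group median. Akr1c18, Akr1d1, Pik3c2g and Adh1 are high in all females, Acsbg1, Nt5e and Susd3 are high in all males, and Arntl overlaps between the sexes in both genotypes.

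Enzymes that reduce or conjugate steroids held some of the widest gaps. Of 27 tested in this list, 10 were called higher in females and 1 higher in males (median 0.24); controls had 9 and 2. Akr1d1 (chr6:37530173-37568815, plus strand), the steroid 5-beta-reductase that also acts in bile acid synthesis, read 34091, 44623, 28095, 35564 and 26768 in Bmal1 KO females and 9.56, 64.9, 43.4 and 55 in males. No values overlapped, and the difference of 9.84 ± 0.57 (adjusted p = 1.15e-10) was close to the 9.03 ± 0.52 of controls. Srd5a2 (chr17:74016955-74047916, minus strand), the steroid 5-alpha-reductase that activates testosterone, was the 1 member higher in males. It read 5939, 3619, 4685, 1792 and 2711 in females against 21386, 16052, 18750 and 18844 in males, a difference of -2.44 ± 0.31 (adjusted p = 7.56e-06). Hsd17b7, an enzyme of both oestradiol and cholesterol synthesis, was higher in females by 2.54 ± 0.39 (adjusted p = 6.26e-05). Ugt1a1, which adds glucuronic acid to bilirubin and oestrogens, read 303 to 1564 in females. In males it read 2.78 in male 2 and 0 in the other 3. Ugt1a1 shares exons with other genes of its cluster, so its reads may belong in part to those.

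Of 17 steroid synthesis genes tested, 5 were called higher in females and 2 higher in males, beside 12.2% and 10.6% of all autosomal genes, and the list median of -0.08 changed sign between settings. Star, which carries cholesterol into mitochondria, had a mean of 152307 ± 21049 normalised reads in Bmal1 KO females (SD, n = 5) and 162188 ± 30810 in males (n = 4), with overlapping values (-0.08 ± 0.16, adjusted p = 0.764). Cyp11a1, which makes pregnenolone, differed by -0.17 ± 0.17 (adjusted p = 0.514). For Cyp11b1, the last enzyme of corticosterone synthesis, the difference was 0.33 ± 0.20 (adjusted p = 0.265). In controls Cyp11a1 was called higher in males (-0.69) and Cyp11b1 higher in females (0.92), and the test of the difference gave adjusted p values of 0.747 and 0.759.

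The 7 called members were Hsd3b1, Hsd3b6, Cyp21a1, Cyb5a, Cyb5b, Nr5a1 and Fdxr. Hsd3b1, which turns pregnenolone into progesterone, read 437456 to 520866 in Bmal1 KO females and 270952 to 333892 in males (0.68 ± 0.13, adjusted p = 0.000723). Cyp21a1, the steroid 21-hydroxylase, read 214567 to 280844 in females and 128535 to 186874 in males, a difference of the same 0.68 ± 0.11. Nr5a1, the transcription factor SF-1 that controls steroidogenic genes, read 9373, 9519, 9546, 10346 and 9828 in females and 5596, 3322, 4954 and 3297 in males, a difference of 1.22 ± 0.16 (adjusted p = 1.25e-05). Cyb5b, an outer mitochondrial cytochrome b5, was higher in females by 1.17 ± 0.08, and its relative Cyb5a by 0.58 ± 0.16. Fdxr, the reductase that passes electrons to mitochondrial P450 enzymes, was higher in males (-0.41 ± 0.13, adjusted p = 0.0245). Hsd3b6, the isoform of the outermost zone, was higher in males (-1.92 ± 0.48, adjusted p = 0.00607). Its male values spread widely, at 10386, 19028, 3902 and 2724 against 1059 to 2425 in females, and its call was lost when only libraries of 2.6 to 3.4 months were used (adjusted p = 0.0657). Among those libraries 4 members of the list were called, all higher in females. Hsd3b1 and Hsd3b6 are near copies, so the split of their reads is uncertain.

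Receptor and signalling genes of the ACTH pathway split between the sexes, with 6 of 23 called higher in females and 5 higher in males. The shares over all autosomal genes were 12.2% and 10.6%. On the receiving side, the ACTH receptor Mc2r was higher in females (0.54 ± 0.13, adjusted p = 0.00336), as were its accessory proteins Mrap (0.87 ± 0.20) and Mrap2 (1.41 ± 0.38). Pde8b, a phosphodiesterase that degrades cAMP in cortical cells, read 4593, 4675, 5477, 5208 and 4835 in females and 1762, 1551, 1312 and 1385 in males. That is 1.73 ± 0.12 higher in females (adjusted p = 1.71e-09). Adcy3, an adenylyl cyclase that makes cAMP, was higher in males (-0.59 ± 0.15, adjusted p = 0.0052).

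Cholesterol synthesis was the broadest female-biased programme in the Bmal1 KO adrenals. Of 24 tested genes, 20 were called higher in females and 0 higher in males, beside 12.2% of all autosomal genes called higher in females, and the median difference was 1.68. The female and male values did not overlap for 20 genes of the list, beside 20.8% of all autosomal genes. In controls 15 of the 24 were called, with a median of 0.89. Summed over the list, the Bmal1 KO females read 133980, 68051, 74831, 82545 and 88117 normalised reads and the males 30529, 18636, 33446 and 26036. Female 1, the highest in this sum, was also the oldest female at 3.4 months.

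The promoter stretches of 4 list members are shown to set called genes with matches (Hmgcs1, Mvd) beside a called gene without one (Sc5d) and a gene not called (Dhcr7). They are taken from RefSeq (GRCm38.p6), run from 150 to 31 bases before the annotated start, 5′ to 3′ on the gene's strand, and overlap no exon annotated in GENCODE M21. Capitals mark matches, on either strand, to TCACNCCAC, a core of the sterol regulatory element bound by SREBP2. They also mark CCAAT, the box bound by NF-Y, which reads ATTGG when it lies on the opposite strand. The lines are Hmgcs1 at chr13:119690201-119690320 on the plus strand, Mvd at chr8:122443453-122443572 on the minus strand, Sc5d at chr9:42264331-42264450 on the minus strand and Dhcr7 at chr7:143823017-143823136 on the plus strand.
Hmgcs1: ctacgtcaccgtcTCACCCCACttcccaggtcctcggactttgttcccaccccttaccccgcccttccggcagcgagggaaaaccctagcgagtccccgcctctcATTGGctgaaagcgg
Mvd: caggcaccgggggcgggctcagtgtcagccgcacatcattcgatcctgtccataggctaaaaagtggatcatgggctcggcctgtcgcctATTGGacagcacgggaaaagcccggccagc
Sc5d: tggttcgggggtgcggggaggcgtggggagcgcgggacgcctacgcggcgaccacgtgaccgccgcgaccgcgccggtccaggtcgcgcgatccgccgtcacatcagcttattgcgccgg
Dhcr7: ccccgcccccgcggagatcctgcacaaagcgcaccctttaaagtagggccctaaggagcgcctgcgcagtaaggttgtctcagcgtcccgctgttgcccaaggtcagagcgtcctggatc

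RefSeq windows were found for 17 of the 24 genes, 21 windows in all. Over the 250 bases before the start, CCAAT stood in 15 of these 21 windows, against 33.8% of all 32851 windows in the table. TCACNCCAC stood in 1 of the 21, that of Hmgcs1, against 1.05% of all windows. Of 9 list genes with such a stretch free of exons, 5 held a match within it and 4 did not, and both sets held called genes. For Sc5d, CCAAT stood elsewhere in the bases searched of the window shown. For Dhcr7 it stood only in another RefSeq window, which is not shown. A match is a description of letters, and its absence says only that these letters are not in this window.

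Hmgcs1 (chr13:119690379-119708260, plus strand), the synthase that opens the mevalonate pathway, read 33860, 16241, 16606, 17029 and 19405 normalised reads in Bmal1 KO females and 2173, 1562, 2379 and 2029 in males. Female 1 stood above the rest, and the lowest female was still above the highest male. Its difference was 3.30 ± 0.29 (adjusted p = 4.07e-08), against 2.31 ± 0.26 in controls. Mvd, the decarboxylase that closes the mevalonate steps, read 1279, 488, 641, 511 and 766 in females against 119, 123, 95.6 and 115 in males (2.60 ± 0.29). Mvk, the mevalonate kinase, differed less, by 0.64 ± 0.12 (adjusted p = 0.000369), and was not called in controls (0.06 ± 0.11, adjusted p = 0.711).

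Genes of the isoprenoid and sterol steps were also higher in females. Fdps, which makes farnesyl diphosphate, differed by 2.96 ± 0.32 and Idi1, the isomerase before it, by 2.84 ± 0.35. Downstream, the squalene epoxidase Sqle read 3294, 1733, 1915, 2035 and 2270 in females and 571, 359, 544 and 529 in males (2.15 ± 0.29), and the demethylase Cyp51 differed by 2.52 ± 0.31. Among the 4 members not called were the transcription factor Srebf2 (0.28 ± 0.13, adjusted p = 0.136), its escort Scap (0.24 ± 0.13), the prenyl transferase Ggps1 (0.03 ± 0.10) and Dhcr7. Dhcr7, a last step of the pathway, read 3312 to 9047 in females and 2141 to 11131 in males.

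In all 24 cholesterol synthesis genes the estimated female minus male difference was greater in Bmal1 KO than in controls, with a median excess of 0.66 on the log2 scale. Over all autosomal genes tested, 51% were greater in Bmal1 KO and the median excess was 0.01. No single member was called for the difference by limma (0 of 24), and the genes of 1 pathway in 1 library are not independent. With age as a covariate the count was again 24 and the median 0.58; without Bmal1 KO female 1 it was 23 and 0.52, without Bmal1 KO male 2 it was 21 and 0.60, and without control female 4, aged 1.5 months, 22 and 0.52. The 2 control females of 1.5 months have no counterpart in age among the Bmal1 KO libraries. Neither do control males 1 and 2, at 4.7 and 4.6 months. Age and genotype are therefore partly tied in this comparison.

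**Figure D3:**
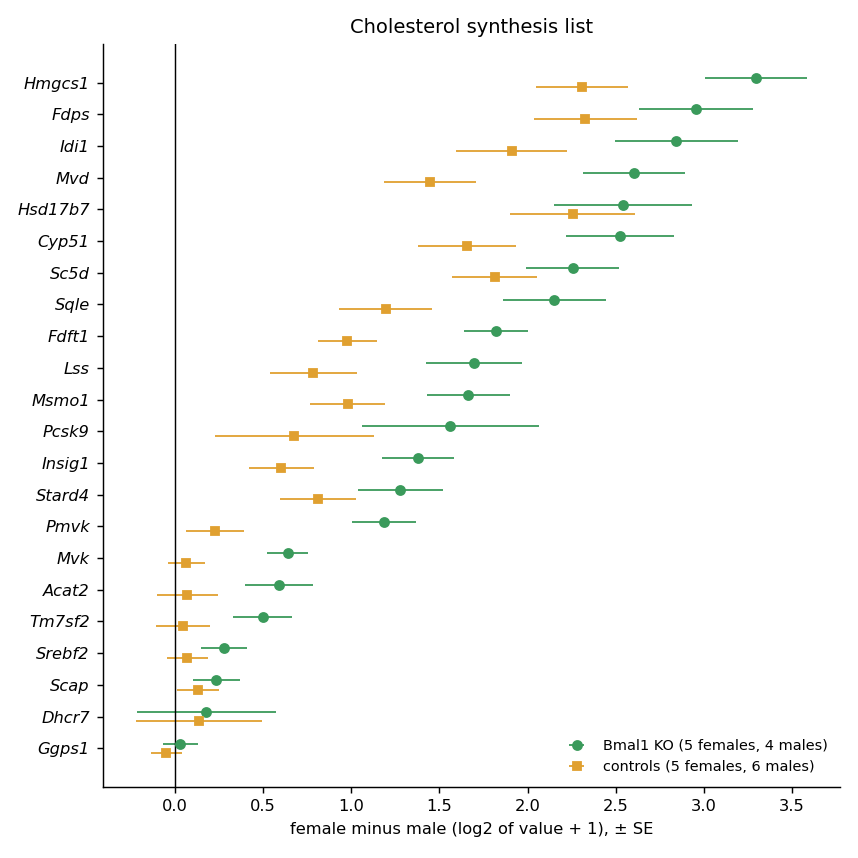
Female minus male log2 difference, with its standard error as a bar, for 22 of the 24 cholesterol synthesis genes in Bmal1 KO (circles, 5 females and 4 males) and in controls (squares, 5 females and 6 males). The Bmal1 KO estimate lies to the right of the control estimate for every gene plotted, from Hmgcs1 (3.30 against 2.31) down to Ggps1 (0.03 against -0.05).

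Cholesterol uptake and storage differed in fewer members, with 7 of 15 higher in females and 1 higher in males (median 0.27). Lipa, the lysosomal acid lipase, was higher in females by 1.46 ± 0.11 and Abca1, the cholesterol exporter, by 1.24 ± 0.17. Scarb1, the receptor for high-density lipoprotein, differed by -0.20 ± 0.26 with overlapping values (adjusted p = 0.631). Apoe was called higher in females (1.01 ± 0.33, adjusted p = 0.0309), but the groups overlapped and the call was lost without Bmal1 KO female 1 or 3 or male 1 or 3 (adjusted p from 0.0794 to 0.101) and among libraries of 2.6 to 3.4 months (0.111).

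Fatty acid genes went both ways, with 7 of 20 higher in females and 3 higher in males. The 2 acetyl-CoA carboxylases were opposed: Acaca, which feeds fatty acid synthesis, was higher in females by 1.51 ± 0.15, and Acacb, which restrains mitochondrial fatty acid oxidation, was higher in males (-1.41 ± 0.11). Acsbg1 (chr9:54604877-54661870, minus strand), which activates very long-chain fatty acids, was among the strongest male genes. It read 15220, 17821, 17260 and 15138 in Bmal1 KO males and 897, 504, 962, 2082 and 590 in females, a difference of -4.21 ± 0.28 (adjusted p = 8.01e-10). Control females read 2466 to 4903, above every Bmal1 KO female, and the control difference was -2.45 ± 0.25; the difference of the 2, at -1.76 ± 0.38, was not called (adjusted p = 0.151). Fads2, a desaturase, was higher in females by 1.09 ± 0.23.

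Oxidative programmes leaned towards females. Of 26 redox defence and NADPH genes, 15 were higher in females and 2 in males (median 0.33); without Bmal1 KO male 4 the counts were 9 and 2. Catalase, Cat, read 5091 to 8354 in females and 2237 to 3486 in males (1.11 ± 0.20). The peroxidase Prdx6 differed by 1.09 ± 0.10. Hmox1, which degrades haem, was higher in males, at 2785, 1959, 2217 and 2068 against 632 to 858 in females (-1.60 ± 0.18, adjusted p = 1.33e-06), as was Me1, a malic enzyme that supplies NADPH (-0.72 ± 0.14). Of 24 nuclear genes of the mitochondrial respiratory chain, 15 were higher in females and 0 in males, by small amounts (median 0.32). The largest was Ndufa4, at 0.69 ± 0.09, and the next was Cox5a, at 0.49 ± 0.11.

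Xenobiotic metabolism split into 8 genes higher in females and 9 higher in males of 36. On the female side Gsta2, a glutathione transferase, read 51.9 to 184 in Bmal1 KO females and 0 in all 4 males, which puts the fold at 36.7 at least when the males are set to a floor of 3 reads per library. Gsta3 differed by 3.59 ± 0.33 and the monooxygenase Fmo1 by 2.77 ± 0.17. On the male side Aldh1a7, an aldehyde dehydrogenase, read 2155, 3221, 972 and 1034 in males and 67.5 to 135 in females (-4.02 ± 0.45). Alpha-class glutathione transferases and Aldh1a7 have near copies, so their reads may be shared with those.

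**Figure D4:**
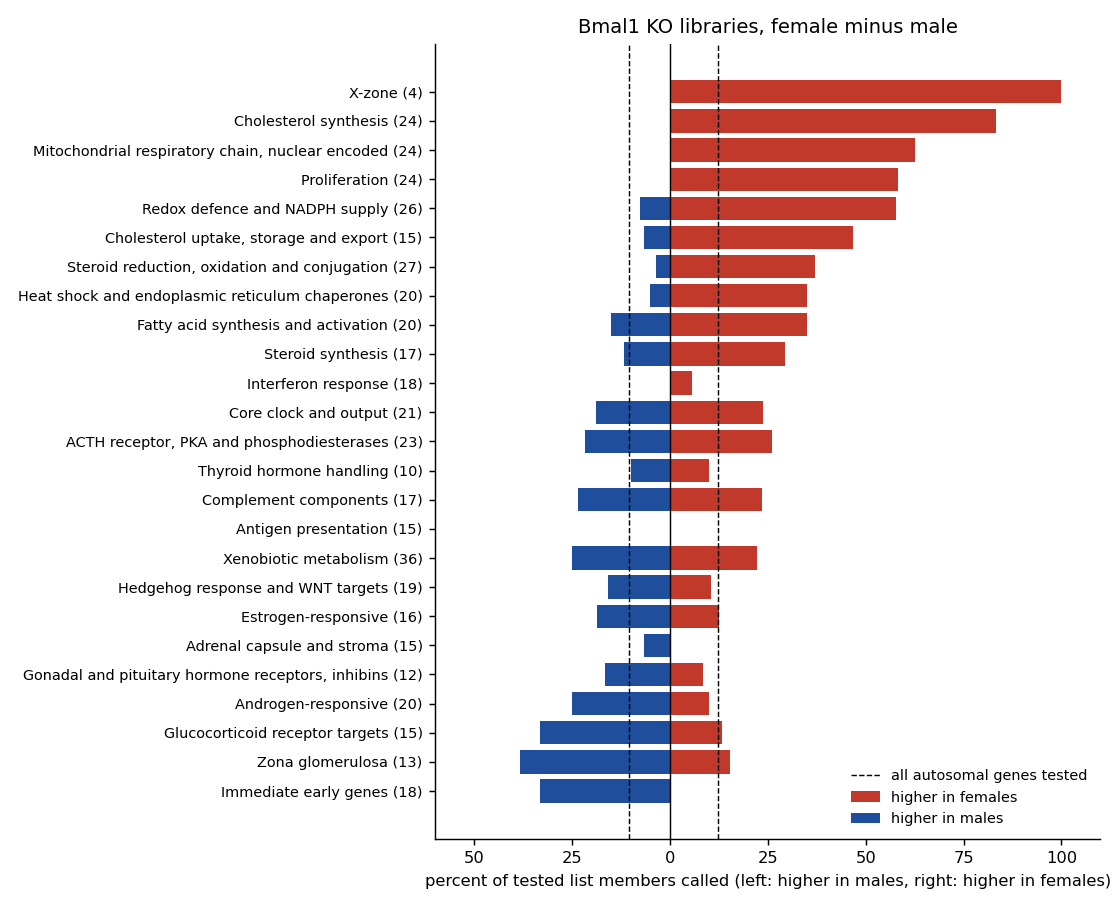
Percent of the tested members of each of 25 gene lists called higher in females (right) or higher in males (left) in the Bmal1 KO libraries, with the number tested in brackets; dashed lines show the same shares over all autosomal genes tested, 12.2% and 10.6%. X-zone and cholesterol synthesis stand farthest to the right (4 of 4 and 20 of 24), and immediate early genes have 6 of 18 to the left and 0 to the right.

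Of 12 genes for gonadal and pituitary hormone receptors and inhibins, 1 was higher in females and 2 in males, a share near the 22.8% of all autosomal genes. Prlr, the prolactin receptor, read 4745, 6633, 6951, 8788 and 5152 in Bmal1 KO females and 2821, 1988, 2410 and 2115 in males (1.45 ± 0.20, adjusted p = 2.52e-05). Inha, the inhibin alpha subunit, was higher in males (-0.97 ± 0.16), as was the oestrogen-binding receptor Gper1 (-1.12 ± 0.30). The oestrogen receptor genes Esr1 (0.27 ± 0.24, adjusted p = 0.469) and Esr2 (0.33 ± 0.38, adjusted p = 0.584) were not called. Of 20 genes known as androgen-responsive in other tissues, 5 were higher in males and 2 in females. Zbtb16, a zinc finger repressor, differed by -2.28 ± 0.40, the transporter Slc45a3 by -1.82 ± 0.18 and Fkbp5, a co-chaperone of steroid receptors, by -1.76 ± 0.25. Pmepa1 went the other way (0.76 ± 0.16).

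Of 16 genes known to respond to oestrogen in other tissues, 3 were higher in males and 2 in females. Over all autosomal genes these shares were 10.6% and 12.2%. Greb1, a cofactor of the oestrogen receptor, read 3126, 2164, 2174, 1550 and 2040 in females and 8132, 8511, 8320 and 7469 in males. It was thus higher in every male than in any female (-1.91 ± 0.13, adjusted p = 1.67e-09), and the control difference was -1.90 ± 0.12. Susd3 (chr13:49230690-49248706, minus strand) read 963, 2016, 2113 and 2080 in males and 7.86 to 64.5 in females (-5.94 ± 0.48, adjusted p = 1.17e-08). Glucocorticoid receptor targets had 5 of 15 higher in males and 2 in females; Zbtb16 and Fkbp5 stand on this list too, and Ddit4 was higher in males (-0.93 ± 0.11). Among libraries of 2.6 to 3.4 months, 4 members were called, all higher in males. Crym, which binds thyroid hormone in the cytosol, was the male gene of its list of 10, at 968, 1797, 873 and 1236 against 56.1 to 93.2 in females (-4.02 ± 0.24), and Thrb was the female one.

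Among 13 zona glomerulosa genes, the outer zone that makes aldosterone, 5 were higher in males and 2 in females. The female ones were Dab2 (0.476 ± 0.112, adjusted p = 0.0036) and Wnt4 (0.515 ± 0.179, adjusted p = 0.0426). Dab2 had means of 13003 normalised reads in females and 9322 in males, and Wnt4 of 4077 and 2869. Shh, the hedgehog ligand of outer cortical cells, read 354, 770, 575 and 758 in males and 119 to 230 in females (-1.90 ± 0.31, adjusted p = 0.000122). Kcnk9, a background potassium channel of these cells, differed by -1.63 ± 0.14. Cyp11b2, the aldosterone synthase, was not called (-0.28 ± 0.21, adjusted p = 0.374). Sfrp2 was called higher in males at very low values (2.39 to 17.3 against 0 to 7.47) and lost the call without male 2 or 4 (adjusted p = 0.0553 and 0.0634). For all 13 members the estimated female minus male difference was smaller in Bmal1 KO than in controls (median -0.26). By limma 0 were called for it, and without Bmal1 KO male 2 it was smaller for 10. Over all autosomal genes tested, the difference was greater in Bmal1 KO for 51%. It was greater for 0 of 12 adipocyte markers (median -1.25) and for 16 of 18 immediate early genes (0.32). Of 19 hedgehog and WNT response genes, 2 were higher in females and 3 in males, a share near the 22.8% of all autosomal genes. The male ones included the WNT targets Axin2 (-0.82 ± 0.16) and Tcf7 (-0.77 ± 0.09). Lgr5 was the other gene called higher in males (-0.72 ± 0.25, adjusted p = 0.039), with overlapping groups, and lost the call without any 1 of 6 Bmal1 KO libraries (females 1, 3 and 4, males 2, 3 and 4; adjusted p from 0.0508 to 0.114) or with age as a covariate (0.0846).

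Clock genes differed by sex in the Bmal1 KO adrenals, with 5 of 21 higher in females and 4 higher in males (controls 5 and 6). Beside these stand 12.2% and 10.6% of all autosomal genes in Bmal1 KO. The female genes included Bhlhe40, a repressor of the clock loop, at 2386 to 3230 against 1116 to 1597 (1.03 ± 0.16, adjusted p = 5.41e-05), and the activating receptor Rora (0.81 ± 0.12). Per2, a core repressor, read 1725, 973, 1303, 990 and 817 in females and 2374, 1784, 2717 and 1827 in males (-0.93 ± 0.24, adjusted p = 0.00778). All males were above all females, but the call was lost among libraries of 2.6 to 3.4 months (adjusted p = 0.143). Nfil3 was called higher in females (0.81 ± 0.24) and lost the call without male 1 or 4 (adjusted p = 0.0549 and 0.0597) and in the same age range (0.114). Dbp differed by 0.02 ± 0.16 (adjusted p = 0.957) and Nr1d1 by -0.44 ± 0.28 (adjusted p = 0.278). Among libraries of 2.6 to 3.4 months Nr1d1 was called higher in males (-0.89, adjusted p = 0.0448). The hour of collection is not given, so its part in these differences was not tested.

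Cell cycle genes were higher in females. Of 24 proliferation genes, 14 were called higher in females and 0 in males (median 0.72; controls 16 and 0, median 0.66). Cdk1, which drives entry into mitosis, read 284, 380, 230, 316 and 287 in females and 146, 170, 129 and 105 in males (1.12 ± 0.28, adjusted p = 0.00552). Ube2c differed by 1.10 ± 0.23 and Top2a, a topoisomerase of dividing cells, by 1.03 ± 0.22. Mki67 read 442 to 768 in females and 278 to 374 in males (0.89 ± 0.23). With only libraries of 2.6 to 3.4 months, 8 of the 24 were called and Mki67 was not (adjusted p = 0.0625).

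Immediate early genes that were called were all higher in males. Of 18 tested, 6 were called higher in males and 0 in females (median -0.46), against 11 and 0 in controls (median -0.93). With the 2 Bmal1 KO groups fitted alone, 9 were called higher in males and 1 in females. Nr4a2, an orphan nuclear receptor induced by ACTH, read 2959, 3654, 5034 and 3649 in males and 586 to 1787 in females (-1.60 ± 0.28, adjusted p = 0.000271). Jun, a subunit of AP-1, read 6979 to 7815 in males and 3253 to 4273 in females (-0.98 ± 0.13). Btg2 differed by -1.09 ± 0.26 and Zfp36 by -1.02 ± 0.24, while Fos was not called (-0.52 ± 0.28, adjusted p = 0.202). How the glands were handled before extraction is not given, and its part was not tested.

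Of 20 heat shock and endoplasmic reticulum chaperones, 7 were higher in females and 1 in males. The mitochondrial pair Hspe1 and Hspd1, which fold imported proteins, was higher in females by 0.95 ± 0.17 and 0.77 ± 0.22; Hspd1 lost its call without male 4 (adjusted p = 0.0515). The cytosolic chaperone Hspa8 differed by 0.83 ± 0.19, and the small heat shock protein Hspb1 was higher in males (-1.17 ± 0.23). In the complement list 4 of 17 were higher in females and 4 in males, beside 12.2% and 10.6% of all autosomal genes. C3 (chr17:57203970-57228136, minus strand), the central complement protein, read 7137, 23257, 13870, 23552 and 4501 in Bmal1 KO females and 153, 489, 230 and 436 in males (5.34 ± 0.59, adjusted p = 9.42e-07). It varied widely among the females, all above every male. In control females it read 22730 to 89954, the control difference was 7.96 ± 0.53, and the difference of the 2 was not called (-2.62 ± 0.79, adjusted p = 0.422). Masp1, a protease of the lectin pathway, was higher in females by 3.60 ± 0.32, and C4b by 2.02 ± 0.24, though C4b and C4a are near copies. Interferon response genes had 1 call of 18 and antigen presentation genes 0 of 15 by limma.

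Genes outside these lists made up much of the rest of the largest differences. Higher in females, Adh1 (chr3:138260991-138290698, plus strand), an alcohol dehydrogenase that also oxidises retinol, read 121879 to 168564 in females and 6467, 2427, 7181 and 4564 in males (4.87 ± 0.38, adjusted p = 7.07e-09). Frzb (chr2:80411970-80447625, minus strand), a secreted WNT antagonist, read 5669 to 11182 in females and 52.9 to 111 in males (6.67 ± 0.41). Fetub, the protease inhibitor fetuin B, read 3477 to 8696 in females and 31.3 to 54.2 in males (7.02 ± 0.40). The fatty acid hydroxylase Fa2h reached 722 to 2283 in females and at most 4.64 in males (8.76 ± 0.83).

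Further genes at the female end included Cst8, a cystatin, which differed by 6.55 ± 0.44 in Bmal1 KO and 3.53 ± 0.40 in controls, and the difference of the 2 missed the threshold (3.02 ± 0.59, adjusted p = 0.0733). Omp, named for olfactory neurons, differed by 6.51 ± 0.50, and the zinc finger factor Zfp750 by 6.38 ± 0.49. Prr16 followed at 6.08 ± 0.36, Elfn1 at 5.84 ± 0.73 and Ssu2 at 5.83 ± 0.45. No overlap between the sexes was a condition for naming these 6 genes, so it adds nothing to the differences given. At the abundant end, Sparc, a matrix protein, was higher in females by 0.79 ± 0.13 and the aldo-keto reductase Akr1cl by 0.95 ± 0.09.

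At the male end stood receptors, a matrix gene and a nucleotidase. Drd4 (chr7:141292006-141296464, plus strand), a dopamine receptor, read 145, 117, 108 and 63.7 in Bmal1 KO males and at most 2.7 in females, with 3 females at 0 (-6.12 ± 0.43, adjusted p = 1.68e-09). Acan (chr7:79053483-79115099, plus strand), the cartilage proteoglycan aggrecan, read 1347, 1426, 1174 and 1273 in males and 22.1 to 49.7 in females (-5.31 ± 0.45). Nt5e (chr9:88327197-88372092, plus strand), the ectonucleotidase CD73 that makes adenosine, read 1806 to 3070 in males and 79.4 to 157 in females (-4.26 ± 0.23, adjusted p = 4.03e-11). The potassium channel Kcnk1 differed by -3.80 ± 0.30 and Serpina6, the corticosteroid-binding globulin, by -3.25 ± 0.35.

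Other male-biased genes were Tmem52 (-3.29 ± 0.19), Fam46b (-3.18 ± 0.30) and the vomeronasal receptor Vmn2r13 (-3.38 ± 0.52). The axonemal dynein Dnah10 ranged from 2.24 to 318 in females and 516 to 827 in males (-3.32 ± 0.81, adjusted p = 0.00478). Zfp618 ranged from 196 to 1865 in males and 69.6 to 93.8 in females (-3.31 ± 0.80), and its call was lost among libraries of 2.6 to 3.4 months (adjusted p = 0.0587).

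Markers of other cells in the gland are given by list, beside 22.8% of all autosomal genes called. Of 20 chromaffin cell markers of the medulla, 2 were higher in females, Gch1 (1.24 ± 0.13) and Pnmt (1.21 ± 0.27, the enzyme that makes adrenaline), and 1 in males, Scg5. Their summed normalised reads ranged from 144328 to 186213 in females and 156421 to 196200 in males, and Th, the entry enzyme of catecholamine synthesis, differed by 0.15 ± 0.19. Scg5 (-0.44 ± 0.14) lost its call without any 1 of 6 Bmal1 KO libraries (females 1, 3 and 4, males 2, 3 and 4; adjusted p from 0.051 to 0.0963), among libraries of 2.6 to 3.4 months (0.0561) and with age as a covariate (0.0529), and without control male 4 the count on this list was 2 and 4. Summed markers of the steroidogenic cortex were higher in every female (1074745 to 1336892) than in any male (718875 to 1033210). Of the 7 genes 4 were called higher in females, and Hsd3b1 and Cyp21a1 were large terms, while Star, Cyp11a1 and Cyp11b1 were not called. Of 12 endothelial markers 5 were higher in males (from -0.51 for Ptprb to -0.29 for Kdr), with sums of 22896 to 27211 in males and 20135 to 24948 in females. This count was 3 without female 4, female 5 or male 2, and 1 among libraries of 2.6 to 3.4 months.

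Immune and neighbouring-tissue markers were as follows. Macrophage markers summed to 10121 to 17273 in females and 5642 to 9860 in males, with Lyz2 the largest term (means 7783 and 3553) and a list median of -0.02; 2 of 13 were higher in females, Lyz2 (1.13 ± 0.34) and Trem2 (0.93 ± 0.27), and Mrc1 was higher in males (-0.59 ± 0.12). Lyz2 lost its call without female 1 or male 1 or 3 (adjusted p from 0.05 to 0.0664) and Trem2 without male 4 (adjusted p = 0.0653). Of 12 lymphocyte markers 3 were called, all higher in females. Of these the B cell genes Ms4a1 differed by 0.79 ± 0.21 and Cd79a by 0.87 ± 0.28, the last losing its call with age as a covariate (adjusted p = 0.0509) and without female 2 or 3 or male 2 or 4 (adjusted p from 0.0548 to 0.0708). Among libraries of 2.6 to 3.4 months, 1 macrophage marker (higher in males) and 1 lymphocyte marker were called; Lyz2, Trem2, Ms4a1 and Cd79a were not.

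Of 8 Schwann and sustentacular markers Pmp22 was higher in females (0.84 ± 0.08) and Fabp7 and Cdh19 higher in males (-1.32 ± 0.36 and -1.12 ± 0.30), with Fabp7 not called in that age range (adjusted p = 0.0528). The 12 adipocyte markers had 0 calls by limma and sums of 5030 to 12662 in females and 5383 to 8814 in males, and the 5 red blood cell genes had 0 calls. Adipoq ranged from 0.934 to 337 in females and 12 to 185 in males. Kidney markers summed to at most 28.2 reads in any Bmal1 KO library, with Umod and Slc34a1 at 0 in all 9. Ovary markers summed to at most 78.2 with Fshr at 0; 1 of 5 was called, the oocyte gene Oosp1, at 14.4 to 29.9 in females and 0 to 2.17 in males (3.81 ± 0.44). Liver markers summed to at most 115. The part of these cells in the differences above was not tested.

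The 8 genes called for the difference between the sex differences all had a greater female minus male value in Bmal1 KO. In several other settings genes were called in both directions. These were 47 greater and 25 smaller by DESeq2, 8 and 1 by edgeR, and 9 and 1 with no filter on low values. With 1 library left out they were 6 and 2 without Bmal1 KO female 4, 12 and 1 without control female 1, and 5 and 2 without control female 2. Without control female 5 they were 10 and 6, without control male 4 13 and 2, and without control male 6 10 and 1. The 8 include genes with a wider female excess in Bmal1 KO and genes called higher in males only in controls. Among the former, Pcdh7, a protocadherin, read 331, 517, 570, 452 and 387 in Bmal1 KO females and 31.5 to 72.3 in males, whereas control females (29.8 to 73.8) and control males (20.8 to 78.3) overlapped. Its sex difference was 3.22 ± 0.34 in Bmal1 KO and 0.50 ± 0.31 in controls, a difference of 2.72 ± 0.46 (adjusted p = 0.0331). Clic5, an intracellular chloride channel protein, read 1587 to 1847 in Bmal1 KO females, 753 to 974 in Bmal1 KO males and 400 to 604 in all controls. Both Bmal1 KO groups thus lay above all controls, and its sex difference was 1.07 ± 0.12 against 0.07 ± 0.11 (adjusted p of the difference 0.0315).

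Prodh, which begins proline degradation, was higher in females in both genotypes. It had a mean of 1035 ± 193 in Bmal1 KO females (SD, n = 5) and 756 ± 132 in control females (n = 5), but 258 ± 16.8 in Bmal1 KO males (n = 4) and 449 ± 54.3 in control males (n = 6). The sex difference was 1.98 ± 0.13 against 0.74 ± 0.12 (adjusted p = 0.0183). Metrnl, a secreted protein, was higher in females by 3.20 ± 0.17 in Bmal1 KO and 1.83 ± 0.15 in controls (adjusted p = 0.0315).

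Among the latter, Pim3, a serine/threonine kinase, read 3164 to 4772 in control males and 1405 to 2314 in the other 3 groups. Its sex difference was 0.02 ± 0.13 in Bmal1 KO and -0.99 ± 0.12 in controls (adjusted p = 0.0357). Arhgef37 had a sex difference of -0.11 ± 0.21 in Bmal1 KO and -1.75 ± 0.19 in controls, where all values of both sexes (16.5 to 86.1) lay below those of Bmal1 KO (106 to 220; adjusted p = 0.0333). Sftpc, best known as a lung surfactant protein, was called in opposite directions, 1.19 ± 0.23 and -0.64 ± 0.21 (adjusted p = 0.0331), at 14.8 to 75.1 reads. Gm23991, a small nucleolar RNA gene, never exceeded 4.94 reads and lies within an exon of 2410002F23Rik.

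All 8 calls were lost with age as a covariate (adjusted p from 0.0775 to 0.0876) at differences close to those without it, such as 2.67 against 2.72 for Pcdh7 and 1.16 against 1.24 for Prodh. All were also lost without Bmal1 KO male 2, male 3 or male 4 or control female 4 (adjusted p from 0.052 to 0.0973 over these 4 settings). Rgcc (0.53 ± 0.18 in Bmal1 KO, -0.50 ± 0.16 in controls) and Gm15701, the other two genes called in opposite directions by sex, were not called for the difference (adjusted p = 0.235 and 0.205). Rgcc lost its Bmal1 KO call without female 2 or 3 or male 2 or 4 (adjusted p from 0.0583 to 0.154) or with age as a covariate (0.0743), and Gm15701, at no more than 2.17 reads in Bmal1 KO, without male 2 or 3 (adjusted p = 0.0546 and 0.0651) or among libraries of 2.6 to 3.4 months (0.064).

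**Figure D5:**
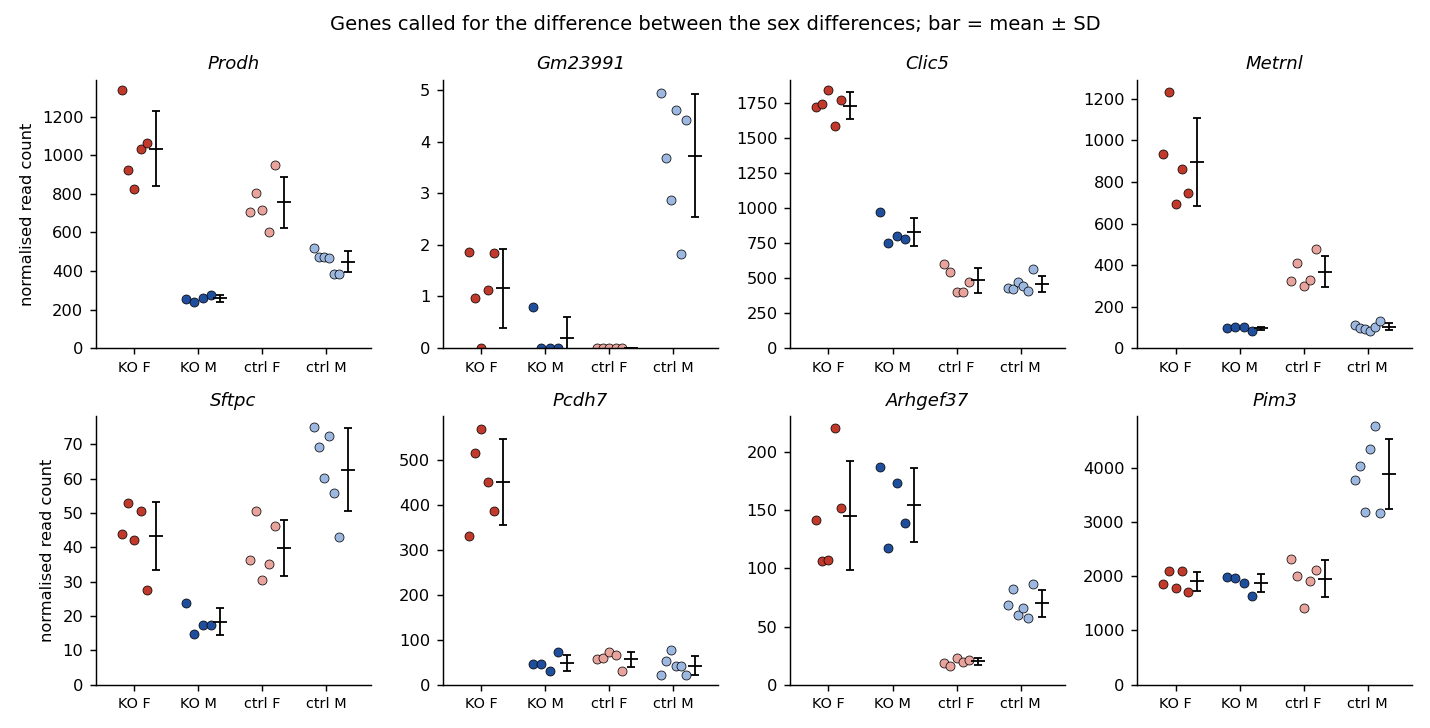
Normalised read count of the 8 genes called for the difference between the sex differences in every library, as points by group (KO F, KO M, ctrl F, ctrl M), with the group mean and SD beside them. Pcdh7 is high in the Bmal1 KO females alone (331 to 570), while Pim3 is high in the control males alone (3164 to 4772).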

How the data were processed

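RNA sequencing of 20 libraries was deposited as 1 table. Per the submitters' processing notes, FastQC, MultiQC, featureCounts, Salmon and DESeq2 were used with mm10 and GRCm38; what each did, its version, the aligner and the strandedness of counting are not stated there. The deposited signal per gene and library behaves as whole reads scaled by 1 factor per library, as DESeq2 normalisation gives: 100% of positive values were whole multiples of 1 step per library, within 0.001 of a read. Without a stated strand, reads of overlapping antisense genes cannot be told apart. All 20 columns matched a title, and 0 had no sample. Identifiers were placed with GENCODE M21 on GRCm38 (47224 found, 505 not).

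limma-trend (limma 3.58.1, R 4.3.3) modelled log2(value + 1) for the 26612 genes that reached 1 in 4 or more libraries, using 4 group means and 1 spread over 20 libraries. Folds on this scale understate changes of low genes. Adjusted p values are Benjamini-Hochberg over all 26612 genes, two-sided, called under 0.05; autosomal genes were then counted. Errors of differences are SE. Alternatives were edgeR 4.0.16, DESeq2 1.42.0 and limma-voom on recovered reads, TMM scaling, another pseudocount, other filters, age, fewer groups, a replicate block and leaving out each library. The limma-trend fit was tested on simulated counts with known changes, and the alternatives were not.

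Named genes were the 14 largest called differences in each direction (protein-coding, a mean of at least 100 in the higher sex, no overlap), the 6 most abundant called genes at least 1.5-fold different, up to 12 genes called for the difference between the sex differences, and up to 4 called members of largest difference in each of 36 lists; list members not called and the genes said to be picked later were added. The comparison, the lists and these rules were chosen with earlier results of these data known. The floor of detection is 3 reads and covers counting error only. Some list members are counted but not reported by name here.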

Additional observations from a re-analysis of the deposited data

Results flagged for a closer look

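Among 323 groups of 4 or 5 Bmal1 KO libraries checked for the named genes, 25 held 1 value far from the rest of its group; chance alone gives this in about 1 group of 20. In females, replicate 1 stood high for Hmgcs1 (33860 normalised reads, the others at most 19405), Acaca (5656), Trem2 (339) and Sfrp2 (7.47), and replicate 2 for Rgcc (1274) and Slc45a3 (378). Female 4 stood high for Acsbg1 (2082), Cyp2f2 (2451) and Cox5a (2265) and low for Zfp36 (1026) and Tie1 (1099), and female 5 high for Vmn2r13 (35). In males, replicate 1 stood low for Susd3 (963), Axin2 (857) and Zfp36 (1692) and high for Sdhb (5704) and Gm23991 (0.797). Male 2 stood high for Ugt1a1 (2.78), Fa2h (4.64), Trim12a (508, the others 10.4 to 39.9) and Gvin1 (167, the others at 0), and low for Cyp51 (477). Male 3 was low for Akr1cl (21451) and Ddit4 (4158), and male 4 high for Pik3c2g (97.1).

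The female minus male difference was greater in Bmal1 KO than in controls, by the test of the difference itself, for Prodh (1.24 on the log2 scale), Gm23991 (3.002), Clic5 (0.998), Metrnl (1.37), Sftpc (1.83), Pcdh7 (2.72), Arhgef37 (1.64) and Pim3 (1.02).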

How the results depend on the processing

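Under the alternatives run, no named gene changed direction where it was called in the main fit or in the alternative. Sign changes of genes called in neither were not counted. Among gene-by-setting results, 154 lost their call and 8 gained one. Most losses by leaving out a library or by age are given beside the gene in the report. Female minus male in Bmal1 KO called 3844 autosomal genes with only libraries of 2.6 to 3.4 months (fewer samples). It called 5064 with age as a covariate and 4686 to 5956 with 1 library left out. In controls, age as a covariate left 3570 and leaving out 1 library 5778 to 6856. The cause of the drop with age was not tested. The difference between the sex differences was called for 72 genes by DESeq2, 3 by limma-voom, 0 with age as a covariate (limma; 1705 at unadjusted p under 0.05) and 0 to 16 with 1 library left out. It was 0 without Bmal1 KO male 2, 3 or 4 or control female 4 (limma; 1454 to 1637 at unadjusted p under 0.05), 1 without Bmal1 KO female 1, 2 without control male 2, 5 without Bmal1 KO female 3, Bmal1 KO male 1 or control male 1, 13 without control female 1, 15 without control male 4 and 16 without control female 5.

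Same-numbered females and males within a genotype did not deviate together (correlations from -0.0707 to 0.0312). Such correlations cannot exclude a shared litter or day, and pairing between genotypes was not tested. Whether the numbers pair the samples is therefore not known. With the replicate number as a block, 5435 genes were called in Bmal1 KO, 6530 in controls and 9 for the difference between the sex differences. Depth limits low genes most: a value of 1 is about 1 read, and a group at 0 allows up to 3 reads per library.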

Other observations

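Some genes were either nearly silent or clearly expressed from library to library within a group; they were picked out after their values were seen. For 12 of 25337 autosomal genes every library read at most 10 or at least 100 normalised reads, with both kinds inside at least 2 groups. Of these, 0 were called between the sexes in Bmal1 KO by limma and 1, Gvin1, in controls. Ifi202b, an interferon-inducible gene, read 110.3 in Bmal1 KO female 1, 109.8 in female 3 and 100.1 in male 2, and at most 2.1 in the other 17 libraries. Gvin1, an interferon-inducible GTPase gene, read 140 to 409 in control females 1 to 4 and 167 in Bmal1 KO male 2, and 0 in all others. By DESeq2 Gvin1 was called higher in males in Bmal1 KO (-22.89, adjusted p = 3.6e-07), on the reads of male 2 alone. Trim12a read 660 to 928 in the same 4 control females and 508 in Bmal1 KO male 2, and at most 43 elsewhere. It was called higher in males in Bmal1 KO by DESeq2 (adjusted p = 0.00537) and edgeR (adjusted p = 0.0239), but not by limma.

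The pseudogenes Gm8210 and Gm13841 gave identical values in the Bmal1 KO libraries, so their reads cannot be told apart. Both read 0, 959, 1082, 6.73 and 1568 in Bmal1 KO females and 1587, 23.2, 1195 and 1320 in males. In controls every female was at 8.1 or less and every male at 560 or more. The sex difference of Gm8210 was -9.09 ± 1.54 in controls (adjusted p = 0.000142) and -2.24 ± 1.70 in Bmal1 KO (adjusted p = 0.378). The difference between those was not called (adjusted p = 0.54).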
